A study of Homo sapiens with 12 samples.

Results

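The genes described here encode 34 proteins of DNA repair and damage signalling, taken by symbol from a list that covers homologous recombination, the Fanconi anaemia pathway, mismatch repair, end joining, base excision and the checkpoint kinases. All 34 were found among the 38716 gene symbols of the tables, MRE11A under its current symbol MRE11. For the contrast of repair classes, the MRN complex and the helicases BLM and WRN with the nuclease EXO1 were set apart, which gave 8 classes of 2 to 7 genes.

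IMR90, a strain of normal human fetal lung fibroblasts, was profiled while dividing (proliferating, Pro) and after serial passage to replicative exhaustion (senescent, Sen), with no genetic change or drug named in the labels of either group. The deposited RNA-seq tables of proliferating cells carry a name tag that resembles DMSO, a common solvent, although no label speaks of one, so a vehicle given to that state alone cannot be told apart from the state. From each of 3 independently grown cultures per state, 1 lysate in cycloheximide was split for Ribo-seq, in which mRNA pieces covered by ribosomes survive nuclease and are sequenced, and for RNA-seq of its poly(A) fraction, so that there were 12 libraries. The culture protocol names a pair of isolates without tying them to samples, so isolate and state cannot be told apart here, and the medium was MEM with serum for both states.

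A double-strand break can be repaired by homologous recombination, which copies the sister chromatid and therefore operates after replication, or by end joining, which ligates the broken ends in any phase of the cell cycle. The Fanconi anaemia pathway removes crosslinks between the strands and hands its breaks to homologous recombination, mismatch repair corrects replication errors, and base excision replaces single damaged bases. ATM and ATR sense breaks and stalled forks and signal through CHEK2 and CHEK1 to halt the cell cycle.

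For mRNA, RNA-seq reads in the CDS and both UTRs of a gene were added up, and for ribosome-protected fragments (RPF) Ribo-seq reads in the CDS alone were taken. Levels are given in CPM (reads scaled to a common library size of 1e6) scaled with TMM factors, an edgeR estimate of effective library size. Depth in RNA-seq ranged from 7902427 to 14144455 such reads. In Ribo-seq it ranged from 583798 to 1718521 CDS reads, except Pro 1 with 54421 and Sen 2 with 54708, termed shallow below, in which a floor of 3 reads corresponds to 55.1 and 54.8 CPM on library totals. The identity of the cells was checked on marker lists: fibroblast markers summed to 28240 to 31760 CPM of mRNA in Pro and 26720 to 29970 CPM in Sen. The 3 epithelial markers found summed to at most 1.71 CPM and the 2 blood cell markers found to at most 1.03 CPM in any RNA-seq library. Of the endothelial markers, CDH5 had no mRNA read and PECAM1 and VWF were below 1 CPM on average in each state, while TEK averaged 58.0 CPM in Pro and 100.5 CPM in Sen. The 8 proliferation markers, among them MKI67 and TOP2A, summed to 641 to 658 CPM in Pro and 156 to 178 CPM in Sen, and the 8 replication markers, such as MCM2 and RRM2, to 582 to 638 and 230 to 249 CPM, and each of these 16 mRNAs fell. In bulk lysates, fewer cells of a type and less RNA per cell cannot be told apart.

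In senescent cells, mRNA of nearly all repair genes was lower. Of the 34, 32 fell, 1 rose (UNG) and 1 did not pass the test (PMS2), at a Benjamini-Hochberg adjusted p under 0.15 in edgeR's quasi-likelihood test, the false discovery rate used by the study. Among all 12787 genes tested, 37.0% were lower and 36.6% higher. The median log2 fold change of senescent over proliferating cells was -0.78 over the 34 and -0.01 over all genes tested. The 3 senescent libraries all lay under the 3 proliferating ones for 31 of the 34, against 34.2% of all genes tested. Without TMM factors the median of all genes moved to -0.11 and 33 of the 34 were called lower, and directions are given relative to TMM scaling.

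**Figure D1:**
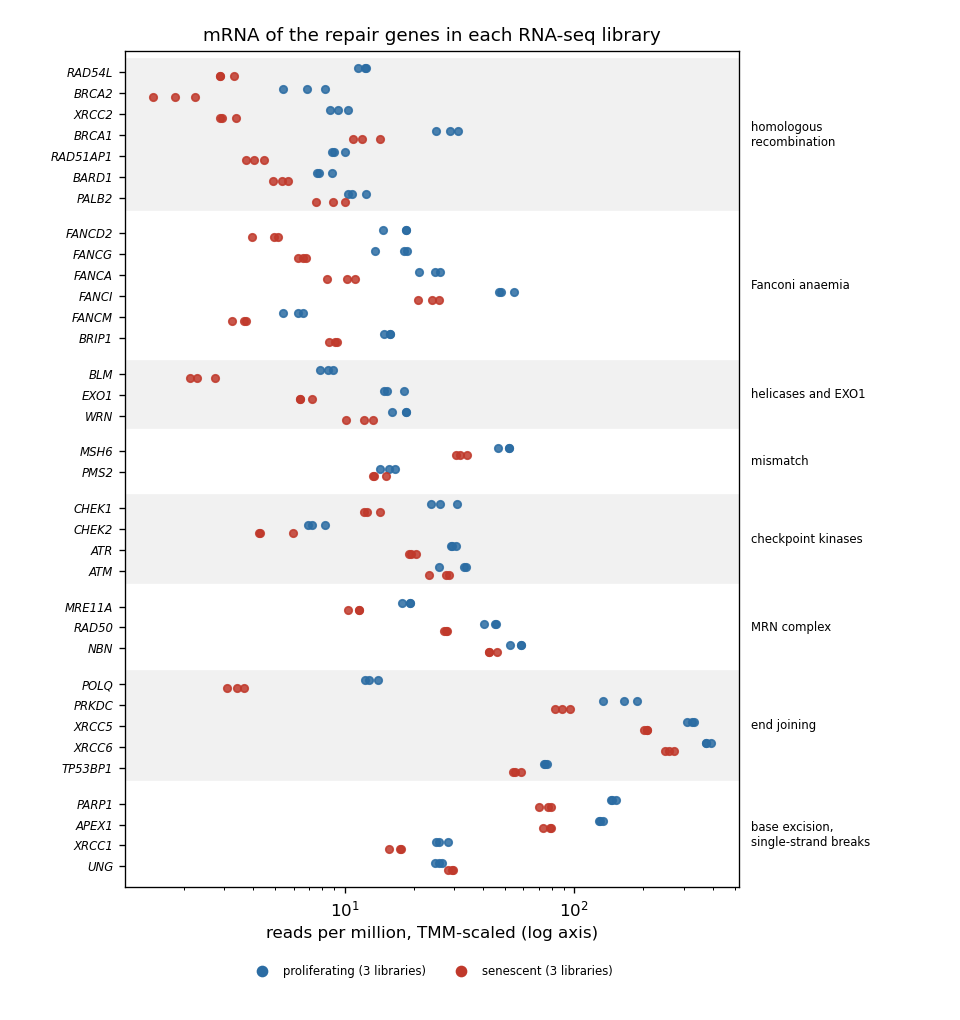
Level of each repair gene's mRNA in each RNA-seq library, in TMM-scaled CPM on a log axis, with blue points for the 3 proliferating and red points for the 3 senescent libraries, by repair class. Red points lie to the left of blue ones for 31 of the 34 genes, overlap them for PMS2 and ATM, and lie to the right for UNG.

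Among the 34, large falls were most frequent in genes of homologous recombination, the Fanconi anaemia pathway and the helicases. The end joining gene POLQ nevertheless had the second lowest value of the 34. A log2 fold change under -1 was found for 5 of 7 genes of homologous recombination, 4 of 6 of the Fanconi anaemia pathway and 2 of the 3 helicase and nuclease genes. It was found for 1 of 4 checkpoint kinases, 1 of 5 end joining genes and none of the mismatch, MRN and base excision genes. Over all genes tested the share was 7.83%. The class medians were -1.21, -1.16 and -1.26 for the first group of classes and lay between -0.40 and -0.70 for the others. No test was made between classes, whose members were chosen by hand.

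**Figure D2:**
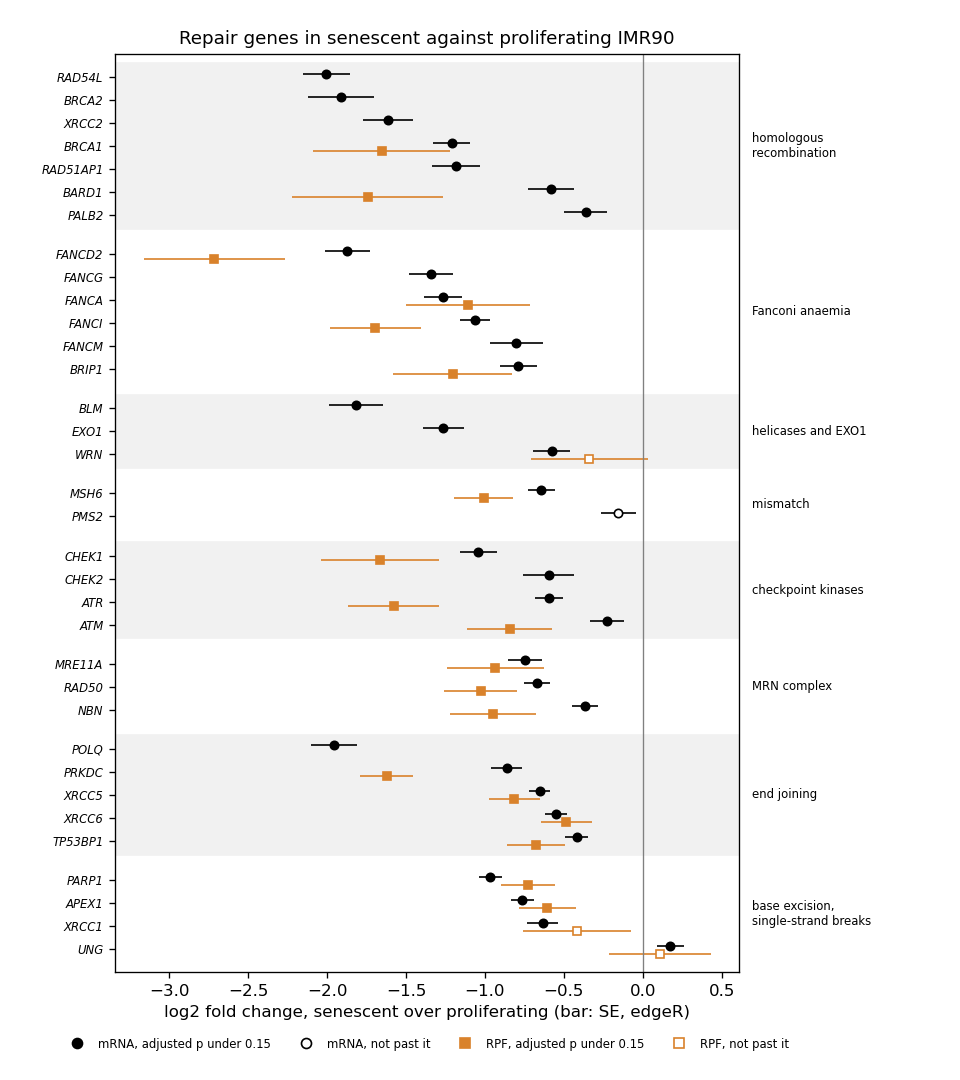
Log2 fold change of senescent over proliferating cells for each repair gene, as black circles for mRNA and orange squares for RPF, with bars of 1 SE from edgeR, filled where the adjusted p is under 0.15. Every mRNA circle but that of UNG lies below 0, RPF squares are present for the 22 genes with enough footprints, and the open squares are WRN, XRCC1 and UNG.

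In homologous recombination, RAD54L, a motor protein that helps the recombinase filament pair with its template, had mRNA levels of 11.5, 12.3 and 12.4 CPM in Pro 1 to 3 and 2.87, 2.86 and 3.29 CPM in Sen 1 to 3. It fell by 2.01 on the log2 scale (SE 0.15, edgeR adjusted p = 1.07e-10). BRCA2, which loads the recombinase onto single-stranded DNA, was at 5.37, 6.84 and 8.19 CPM and then 2.24, 1.83 and 1.46 CPM. It fell by 1.91 on the log2 scale (SE 0.21, edgeR adjusted p = 5.38e-08), with 44 to 88 reads in each proliferating library. XRCC2, a paralog of the recombinase, went from 10.4, 9.32 and 8.66 CPM to 2.87, 2.93 and 3.38 CPM, and fell by 1.61 (SE 0.16, edgeR adjusted p = 1.07e-08). BRCA1, the ubiquitin ligase that promotes end resection, was at 25.0, 31.2 and 28.7 CPM in Pro and 14.3, 11.9 and 10.9 CPM in Sen and fell by 1.21 (SE 0.12, edgeR adjusted p = 5.87e-09). For these 4 genes every senescent level was well under the lowest proliferating one. RAD51AP1, an accessory factor of strand pairing, fell by 1.183 (SE 0.15).

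The partners of BRCA1 and BRCA2 moved less. BARD1, the obligate partner of BRCA1 in the ligase, was at 8.79, 7.61 and 7.73 CPM in Pro and 4.90, 5.35 and 5.67 CPM in Sen and fell by 0.58 (SE 0.15, edgeR adjusted p = 0.00135). PALB2, the bridge between BRCA1 and BRCA2, was at 10.4, 12.4 and 10.8 CPM and then 10.0, 8.87 and 7.495 CPM. It fell by 0.36 (SE 0.14, edgeR adjusted p = 0.0222), the smallest fall of its class, and its groups were separated by less than 0.5 CPM. Whether BARD1 and PALB2 fell less than BRCA1 and BRCA2 was not tested.

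In the Fanconi anaemia pathway, FANCD2, which is ubiquitinated together with FANCI to start crosslink repair, went from 14.7, 18.5 and 18.4 CPM to 3.94, 5.13 and 4.94 CPM and fell by 1.87 (SE 0.14, edgeR adjusted p = 1.58e-10). FANCI, its partner, was the most abundant mRNA of the class per kilobase of transcript, at 54.4, 47.0 and 48.0 CPM and then 20.9, 25.9 and 24.0 CPM, and fell by 1.06 (SE 0.09, edgeR adjusted p = 1.93e-09). FANCA and FANCG belong to the core complex that carries out this ubiquitination. FANCA fell by 1.26 (SE 0.12) and FANCG fell by 1.34 (SE 0.14), from means of 23.9 and 16.8 CPM to 9.94 and 6.55 CPM. FANCM, the translocase that anchors the core complex, fell by 0.80 (SE 0.17), and BRIP1, a helicase that binds BRCA1, fell by 0.79 (SE 0.12). The 6 members thus all fell without overlap between the states.

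Among the helicases and EXO1, BLM, the helicase that dissolves double Holliday junctions, was at 7.81, 8.89 and 8.47 CPM in Pro and 2.13, 2.27 and 2.74 CPM in Sen and fell by 1.82 (SE 0.17, edgeR adjusted p = 4.59e-09). EXO1, a nuclease of resection and of mismatch repair, fell by 1.26 (SE 0.13), from 18.1, 14.9 and 15.3 CPM to 7.24, 6.38 and 6.40 CPM. WRN, the helicase lost in the premature ageing disorder Werner syndrome, fell by 0.58 (SE 0.12, edgeR adjusted p = 0.000197), from 16.1, 18.6 and 18.4 CPM to 10.1, 12.2 and 13.3 CPM. Of the 3, WRN thus had the smallest log2 change, and its groups too did not overlap.

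In mismatch repair, MSH6, part of the heterodimer that recognises mispaired bases, was at 51.8, 46.4 and 52.2 CPM in Pro and 34.2, 30.5 and 31.8 CPM in Sen and fell by 0.64 (SE 0.09, edgeR adjusted p = 8.25e-07). PMS2, part of the heterodimer that nicks the new strand, was at 14.3, 16.6 and 15.6 CPM and then 13.3, 13.4 and 15.2 CPM. These ranges overlap, and its log2 fold change of -0.16 (SE 0.11) did not pass (edgeR adjusted p = 0.227), although it did on library totals (-0.26, adjusted p = 0.046), on CDS reads alone (-0.26, adjusted p = 0.126), without Pro 1 (-0.21, adjusted p = 0.147) or without Sen 3 (-0.23, adjusted p = 0.111). PMS2, like CHEK2, FANCD2 and XRCC6, has near-identical pseudogene copies, and how the authors assigned reads with several placements is not given in the sources used here, so these 4 levels are less certain.

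Among the checkpoint kinases, CHEK1, the effector kinase of ATR, went from 31.0, 23.8 and 26.0 CPM to 12.6, 12.2 and 14.3 CPM and fell by 1.04 (SE 0.12, edgeR adjusted p = 5.69e-08). ATR was at 29.4, 29.1 and 30.5 CPM and then 19.4, 20.5 and 19.0 CPM, and fell by 0.59 (SE 0.09, edgeR adjusted p = 6.65e-06). CHEK2, the effector kinase of ATM, fell by 0.60 (SE 0.16) from a mean of 7.44 to 4.83 CPM. ATM itself, the apical kinase of the break response, was at 25.8, 33.9 and 33.0 CPM in Pro and 23.4, 27.6 and 28.5 CPM in Sen. The states overlap for ATM, since Sen 2 and Sen 3 exceeded Pro 1. Its fall by 0.23 (SE 0.11, edgeR adjusted p = 0.0659) passed the threshold with all libraries but not without Pro 2 (-0.15, adjusted p = 0.291), Pro 3 (-0.18, adjusted p = 0.195) or Sen 1 (-0.15, adjusted p = 0.265).

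MRE11A, RAD50 and NBN form MRN, the sensor that binds broken ends and activates ATM. MRE11A fell by 0.75 (SE 0.11), from a mean of 18.8 CPM (SD 0.85, n = 3) to 11.2 CPM (SD 0.73, n = 3). RAD50 fell by 0.67 (SE 0.09), from 40.5, 45.1 and 45.5 CPM to 27.1, 27.6 and 28.0 CPM. NBN fell by 0.37 (SE 0.08, edgeR adjusted p = 0.0004), from 58.5, 52.5 and 58.8 CPM to 42.7, 46.0 and 42.7 CPM. The 3 subunits therefore fell together, with no overlap between the states for any of them.

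In end joining, XRCC6 and XRCC5, the Ku70 and Ku80 subunits of the ring that clasps a broken end, were the most abundant repair mRNAs per kilobase of transcript in both states. XRCC6 went from 394.7, 374.8 and 373.3 CPM to 258.9, 273.0 and 248.7 CPM and fell by 0.55 (SE 0.07, edgeR adjusted p = 4.87e-07). XRCC5 went from 332.0, 310.8 and 326.9 CPM to 207.9, 206.6 and 201.9 CPM and fell by 0.65 (SE 0.07, edgeR adjusted p = 2.5e-08). Ku recruits PRKDC, the catalytic subunit of DNA-PK, whose mRNA went from 132.7, 164.2 and 186.6 CPM to 88.8, 82.5 and 95.4 CPM and fell by 0.86 (SE 0.10, edgeR adjusted p = 6.47e-08). TP53BP1, which shields ends from resection, fell by 0.42 (SE 0.07), from 73.6, 74.5 and 76.2 CPM to 55.0, 54.2 and 58.7 CPM. All 4 genes of the classical route thus fell, each by less than 1 on the log2 scale and without overlap.

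POLQ stood apart within its class. It encodes the polymerase of theta-mediated end joining, a separate route that acts on resected ends, and its mRNA went from 12.3, 12.7 and 13.96 CPM to 3.41, 3.08 and 3.66 CPM. It fell by 1.95 (SE 0.15, edgeR adjusted p = 1.19e-10), a value between those of RAD54L and BRCA2. The median of the class was -0.65 with POLQ and -0.60 without it.

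In base excision and single-strand break repair, PARP1, which senses single-strand breaks, had the largest fall of this class, from 151.3, 145.2 and 143.9 CPM to 76.6, 70.4 and 78.8 CPM, that is, it fell by 0.97 (SE 0.07, edgeR adjusted p = 1.27e-10). APEX1, the endonuclease that incises abasic sites, fell by 0.76 (SE 0.07), from 128.4, 132.7 and 130.0 CPM to 78.2, 79.1 and 73.1 CPM. XRCC1, the scaffold of single-strand break repair, fell by 0.64 (SE 0.10), from 28.2, 25.8 and 25.0 CPM to 17.5, 17.6 and 15.6 CPM. UNG, the glycosylase that removes uracil, went the other way, from 25.8, 24.8 and 26.4 CPM to 29.6, 29.2 and 28.1 CPM. Its log2 fold change of 0.17 (SE 0.09, edgeR adjusted p = 0.0867) passed with all libraries, with no overlap between the states, but not without Pro 2 (0.15, adjusted p = 0.255), without Sen 1 (0.16, adjusted p = 0.197), on library totals (0.07, adjusted p = 0.501) or with DESeq2 (0.18, adjusted p = 0.163).

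The balance between classes was also read within each library, where library size cancels. Reads per kilobase of canonical transcript were summed over XRCC5, XRCC6, PRKDC and TP53BP1 and divided by the same sum over the 7 genes of homologous recombination. This mRNA ratio was 16.5, 14.7 and 15.1 in Pro 1 to 3 and 21.99, 23.7 and 22.4 in Sen 1 to 3. Every senescent library was above every proliferating one, and the means of 15.4 (SD 0.97, n = 3) and 22.7 (SD 0.90, n = 3) differed by a factor of 1.47. Since both sums fell, the ratio describes an unequal fall, mostly of Ku against homologous recombination mRNA, and not a rise of end joining mRNA. The summed levels of proliferation and replication markers moved with the same state contrast, and their part in the class differences was not tested.

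A wider list of 91 genes of the same and neighbouring pathways was then described in the same fit. At the mRNA level 90 were tested, of which 53 fell, 14 rose and 23 did not pass, with a median log2 fold change of -0.28, against 37.0% lower and 36.6% higher over all genes tested. On library totals 63 of the 90 were called lower and 7 higher. Of 9 further Fanconi genes 8 fell and none rose, of 13 of homologous recombination 8 fell and 1 rose, and of 16 of checkpoint and break signalling 12 fell and 1 rose. Of 16 tested genes of base excision and single-strand breaks 8 fell and 2 rose, and of 7 of end joining 3 fell and 2 rose. Of 16 genes of nucleotide excision, the pathway that removes bulky lesions, 5 fell and 7 rose, with a median of 0.03, and of 7 polymerases and partners of translesion synthesis 4 fell and 1 rose. A log2 fold change under -1 was found for 2 of 13 further homologous recombination genes, 1 of 9 Fanconi genes and 2 of 6 helicases and partners. It was found for 5 of 16 checkpoint and 3 of 16 base excision genes. None of the end joining, nucleotide excision and translesion genes had one, against 7.83% of all genes tested. The medians were -0.42 for homologous recombination, -0.51 for Fanconi, -0.54 for helicases and -0.60 for checkpoint genes. They were -0.20 for base excision, -0.19 for end joining and -0.22 for translesion synthesis. Homologous recombination, Fanconi and helicase genes thus again had lower medians than end joining and base excision, but the checkpoint class was lowest. The order of classes among the 34 was repeated only in part, and no test was made between classes.

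The lowest fold changes of the wider list belonged to genes of resection, checkpoint signalling and fork protection. DNA2, a nuclease and helicase of resection, fell by 1.62 (SE 0.20), CLSPN, the adaptor between ATR and CHEK1, fell by 1.59 (SE 0.12), and TIMELESS, a fork protection protein, fell by 1.48 (SE 0.10). The highest were ERCC6, a factor of transcription-coupled repair, at 0.99 (SE 0.12, edgeR adjusted p = 1.42e-07), POLH, the polymerase that bypasses ultraviolet lesions, at 0.95 (SE 0.08, edgeR adjusted p = 5.3e-10), and XRCC4, the partner of DNA ligase IV, at 0.84 (SE 0.16, edgeR adjusted p = 6.46e-05). POLH went from 38.3, 42.4 and 40.0 CPM to 78.7, 74.4 and 80.4 CPM, and ERCC6 from 8.54, 8.21 and 8.29 CPM to 16.7, 17.0 and 15.9 CPM. Neither these mRNAs nor that of XRCC4 overlapped between the states.

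**Figure D3:**
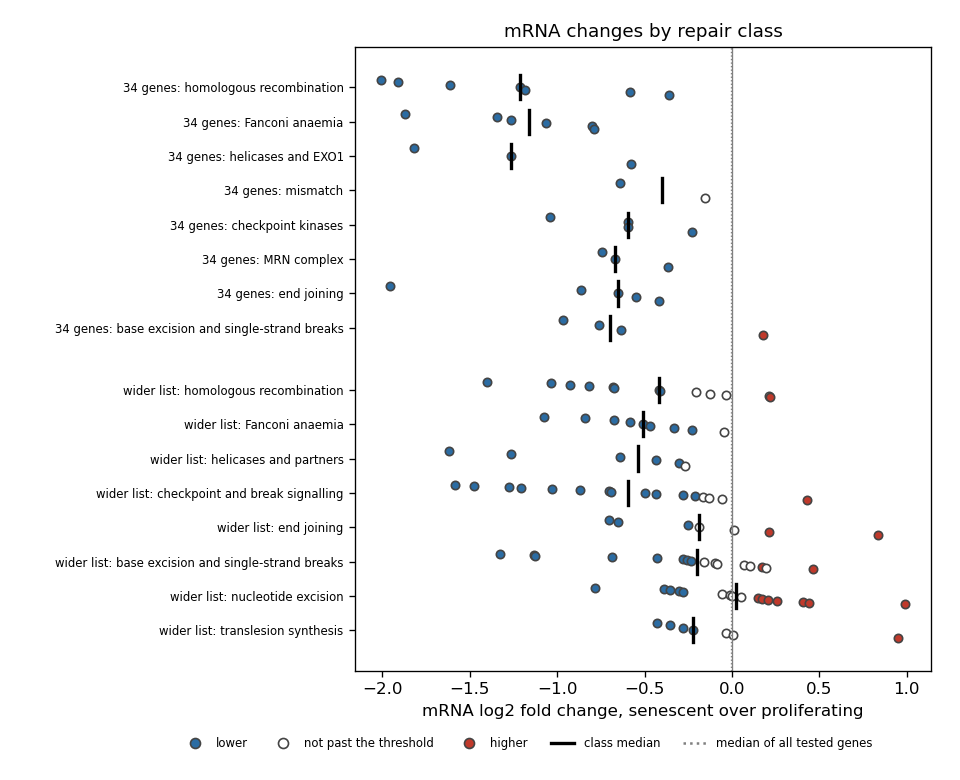
mRNA log2 fold change of each tested gene by repair class, for the 34 genes in the upper block and the wider list in the lower block, with blue for lower, red for higher and white for genes past no threshold, a black bar for the class median and a dotted line for the median of all tested genes. The medians of homologous recombination, Fanconi anaemia and helicases lie between -1.16 and -1.26 in the upper block and between -0.42 and -0.54 in the lower block. Nucleotide excision in the lower block centres on 0.03.

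Genes of replication and repair are often under control of E2F factors, whose sites resemble an 8-base run of thymines followed by C and G. To see whether the promoters share such letters, the runs TTTCCCGC, TTTCGCGC, TTTGCCGC and TTTGGCGC were searched on both strands from 250 bases before to 50 bases after each start site of the RefSeq promoter table (GRCh38.p14). At least 1 run was present for 8 of the 29 repair genes with an entry (27.6%), never more than 1 in a window, against 6.68% of 10110 genes tested in mRNA that have one and 3.99% of all gene symbols of the table. Counted by promoter, it was present in 22.5% of the 40 windows of repair genes and 3.31% of all 35116. The windows below, 30 bases each in the direction of transcription with the run in capitals, show 4 genes that fell and 2 that did not, to set the letters beside the fold changes.
XRCC2 (chr7:152676102-152676131, minus strand): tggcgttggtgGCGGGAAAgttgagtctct
FANCD2 (chr3:10026424-10026453, plus strand): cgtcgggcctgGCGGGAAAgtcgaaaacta
EXO1 (chr1:241848197-241848226, plus strand): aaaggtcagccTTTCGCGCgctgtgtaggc
MSH6 (chr2:47783137-47783166, plus strand): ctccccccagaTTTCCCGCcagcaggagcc
PMS2 (chr7:6009131-6009160, minus strand): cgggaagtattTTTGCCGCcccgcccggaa
UNG (chr12:109098098-109098127, plus strand): gagggaggtttTTTGCCGCgaaaagaccac

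In XRCC2, FANCD2, EXO1 and MSH6 the run began between 2 bases before and 22 bases after a start site, and all 4 mRNAs fell. In UNG it began 63 bases before the start site, and in PMS2 43 and 100 bases before its listed start sites. UNG mRNA rose and that of PMS2 did not pass the test, and both calls changed under other settings. Whether the presence of a run goes with the direction of change was not tested. FANCA and XRCC6 also held 1 run each, which began 172 bases before and 43 bases after their start sites, and both mRNAs fell. RAD54L, BRCA2, BLM and POLQ, with other large falls, held none in these windows. Other listed windows of EXO1, MSH6 and UNG held none. Over all tested genes with an entry, a run was present for 8.58% of those lower, 4.99% of those higher and 6.30% of those not called. A match of letters is a description and not a site of binding, and several genes have more than 1 start site in the table.

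At the level of ribosome-protected fragments, the repair genes that could be tested were again mostly lower. Of the 34, 22 had enough footprints for the test, 19 fell, none rose and WRN, XRCC1 and UNG did not pass. Among all 7521 genes tested, 26.9% were lower and 27.5% higher, a split that moved to 39.1% higher among called genes without TMM factors, from 50.5%. The median log2 fold change was -0.98 over the 22 and -0.00 over all genes tested. The 3 senescent libraries all lay under the proliferating ones for 10 of the 22, namely BARD1, MSH6, ATM, ATR, MRE11A, XRCC5, XRCC6, PRKDC, TP53BP1 and PARP1, against 15.7% of all genes tested. Because a gene enters the test through the state in which it is high, the 22 do not stand for the 34. BARD1 is among the 10, and BARD1, BRCA1, FANCD2 and BRIP1 are among the 19. These genes entered through the proliferating libraries, and in Sen had enough footprints at most in the shallow Sen 2. Entry thus favoured their direction, so the counts of 19 and 10 and the median are a description and not support. The 12 genes without a test, namely BRCA2, PALB2, RAD51AP1, RAD54L, XRCC2, FANCG, FANCM, BLM, EXO1, PMS2, CHEK2 and POLQ, had 7 to 59 footprints each over all 6 libraries. Together they gave 107 and 233 footprints in Pro 2 and Pro 3 and 84 and 16 in Sen 1 and Sen 3, or 159 and 139 CPM against 56.3 and 31.1 CPM, while the shallow libraries held 9 and 1.

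**Figure D4:**
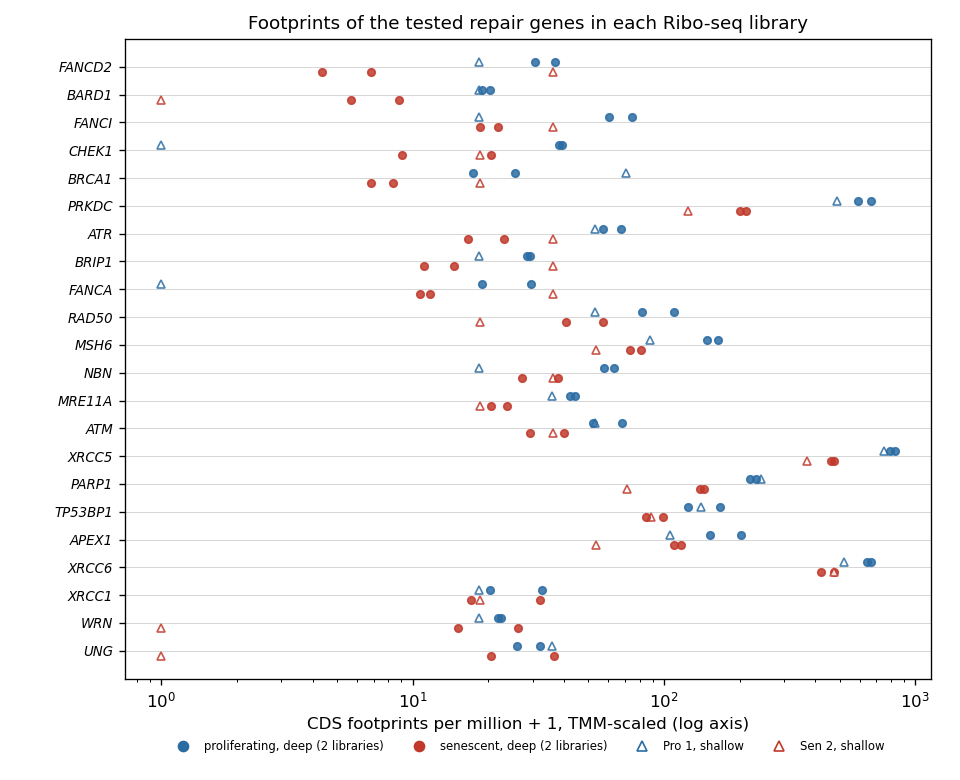
Footprints in the CDS of each of the 22 tested repair genes, in CPM with 1 added, on a log axis, ordered by log2 fold change, with filled circles for the deep libraries (2 per state) and open triangles for the shallow libraries Pro 1 and Sen 2. The deep senescent libraries lie to the left of the deep proliferating ones for all genes down to XRCC6, while the triangles scatter widely for genes with few reads and sit at 1 where no footprint was found.

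The Ku subunits and PRKDC carried most of the footprints. XRCC5 had 43, 535 and 1384 footprints in Pro 1 to 3 and 688, 21 and 244 in Sen 1 to 3, or 746, 794 and 825 CPM against 461, 369 and 474 CPM, and fell by 0.81 (SE 0.16, edgeR adjusted p = 2.93e-05). XRCC6 had 521, 638 and 662 CPM against 474, 475 and 420 CPM and fell by 0.48 (SE 0.16, edgeR adjusted p = 0.0111). Both Ku subunits were separated between the states, but the call of XRCC6 was lost without Pro 3 (-0.40, adjusted p = 0.234) or Sen 3 (-0.41, adjusted p = 0.184). PRKDC had 28, 396 and 1116 footprints in Pro and 299, 7 and 108 in Sen, or 486, 588 and 665 CPM against 200.3, 123 and 210.0 CPM. It fell by 1.62 (SE 0.17, edgeR adjusted p = 3.54e-13), the largest fall of the class. TP53BP1 had 139, 123 and 166 CPM against 97.8, 87.9 and 83.6 CPM and fell by 0.68 (SE 0.18, edgeR adjusted p = 0.00191), which was lost without Pro 3 (-0.43, adjusted p = 0.25).

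Footprints of the tested homologous recombination and Fanconi genes fell as well and rested on few reads. BRCA1 had 4, 11 and 41 footprints in Pro and 11, 1 and 3 in Sen and fell by 1.66 (SE 0.44, edgeR adjusted p = 0.00139). BARD1 had 1, 13 and 30 against 7, 0 and 4 and fell by 1.74 (SE 0.48, edgeR adjusted p = 0.0021). FANCD2 had 1, 20 and 60 against 5, 2 and 3 and fell by 2.71 (SE 0.45, edgeR adjusted p = 6.83e-07), the lowest RPF value of the 22. In the shallow libraries a single read of FANCD2 was worth over 17 CPM, so that Sen 2 with 2 reads stood at 35.2 CPM, level with Pro 3 at 35.8 CPM from 60 reads. FANCI had 1, 40 and 123 against 31, 2 and 9 and fell by 1.70 (SE 0.29), BRIP1 fell by 1.20 (SE 0.38) and FANCA fell by 1.11 (SE 0.40). Of these 6 genes the states did not overlap for BARD1. BARD1 passed the filter through the proliferating libraries alone, with 1 read in Pro 1. Its direction was thus largely set by entry, and neither its fall nor its separation is support. In Sen, BRCA1, FANCD2, BRIP1 and FANCA reached the level of the filter only in the shallow Sen 2. The proliferating libraries alone were enough to let BRCA1, FANCD2 and BRIP1 pass. Their direction was thus also favoured by entry, and their falls are a description and not support. FANCA, with 0 reads in Pro 1, passed only with its 2 reads in Sen 2 beside Pro 2 and Pro 3. The calls of BARD1, FANCA and BRIP1 were lost without Sen 1 (adjusted p of 0.207, 0.31 and 0.37), and that of FANCA also without Pro 3 (-0.51, adjusted p = 0.591).

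Among the kinases, sensors and mismatch proteins, MSH6 had 5, 99 and 274 footprints in Pro and 119, 3 and 37 in Sen, or 86.8, 147 and 163 CPM against 79.7, 52.7 and 71.9 CPM, and fell by 1.01 (SE 0.19, edgeR adjusted p = 8.84e-06). ATR had 52.1, 56.4 and 66.2 CPM against 22.1, 35.2 and 15.6 CPM and fell by 1.58 (SE 0.29, edgeR adjusted p = 4.84e-06). The states were separated for both. CHEK1 had 0, 25 and 64 footprints against 12, 1 and 10 and fell by 1.66 (SE 0.38), and ATM had 3, 45 and 86 against 42, 2 and 20 and fell by 0.84 (SE 0.27, edgeR adjusted p = 0.00841). RAD50 fell by 1.03 (SE 0.23), NBN fell by 0.95 (SE 0.27) and MRE11A fell by 0.93 (SE 0.31), so all 3 MRN subunits fell in both layers. Without Sen 1 the calls of ATM (-0.53, adjusted p = 0.342), CHEK1 (-0.89, adjusted p = 0.218) and NBN (-0.61, adjusted p = 0.267) were lost.

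The 4 base excision genes had a median RPF log2 fold change of -0.51. PARP1 had 243, 218 and 232 CPM in Pro and 143, 70.3 and 138 CPM in Sen and fell by 0.73 (SE 0.17, edgeR adjusted p = 0.000322), with no overlap. APEX1 had 104, 202 and 152 CPM against 116, 52.7 and 109 CPM and fell by 0.61 (SE 0.18, edgeR adjusted p = 0.00498), which was lost without Pro 2 (-0.43, adjusted p = 0.168). XRCC1 at -0.42 (SE 0.34, edgeR adjusted p = 0.338), WRN at -0.34 (SE 0.37, adjusted p = 0.478) and UNG at 0.11 (SE 0.32, adjusted p = 0.81) did not pass, each with an SE of over 0.3. UNG had 2, 21 and 42 footprints in Pro and 53, 0 and 10 in Sen.

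The count of calls in RPF depended on the test and on the shallow lysates. DESeq2 called 8 of the 22 lower, against 7.39% of all genes tested. Without Pro 1 and Sen 2, edgeR tested 30 of the 34 and called 26 lower, against 26.6% of 9213 genes in that fit. Genes that entered anew did so mostly through the proliferating pair in which they were high, so their direction was largely set by entry and neither their values nor the 26 are support. As a description over 2 libraries per state, the called ones were BLM at -2.56 (SE 0.56), BRCA2 at -2.40 (SE 0.47), EXO1 at -2.17 (SE 0.58), CHEK2 at -2.17 (SE 0.58), FANCG at -1.72 (SE 0.46), FANCM at -1.51 (SE 0.47) and RAD51AP1 at -1.30 (SE 0.44). PMS2, also tested there, was at 0.13 (SE 0.45, edgeR adjusted p = 0.836). RAD54L, XRCC2, PALB2 and POLQ remained without a test.

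Footprints of the repair genes lay almost wholly in coding sequence. The CDS took 98.0% to 99.5% of their Ribo-seq reads in 5 libraries and 92.8% in Sen 2, whereas over all genes it took 94.4% and 95.8% in Pro 2 and Pro 3, 91.6% and 81.3% in Sen 1 and Sen 3, and 77.5% and 40.6% in the shallow Pro 1 and Sen 2. In RNA-seq the CDS took 83.5% to 85.5% of the reads of the 34. The 5′ UTR held 0.208% to 2.06% of their footprints, and 13 of the 34 had none there. APEX1 had the most, with 38 reads in its 5′ UTR against 629 in its CDS over 6 libraries, of which 6 and 27 came from Pro 2 and Pro 3 and 4 and 0 from Sen 1 and Sen 3.

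Of the wider list, 39 genes had enough footprints, 13 fell, 6 rose and 20 did not pass, against 26.9% lower and 27.5% higher over all genes tested. With RLE factors 13 were called lower and 4 higher, and on library totals 16 lower and 1 higher. The calls in both directions numbered 2 with DESeq2, 12 without Pro 3 and 35 without both shallow lysates. TIMELESS fell by 1.74 (SE 0.38), RIF1, which acts with TP53BP1 at breaks, fell by 1.68 (SE 0.21), and RAD18, a ubiquitin ligase of translesion synthesis, fell by 1.46 (SE 0.36). At the other end were SWI5, a recombinase mediator, at 0.78 (SE 0.38, edgeR adjusted p = 0.095), MPG, a glycosylase of alkylated bases, at 0.64 (SE 0.21, edgeR adjusted p = 0.0113), and POLH at 0.49 (SE 0.26, edgeR adjusted p = 0.123). The states overlapped for SWI5, with 1, 9 and 22 footprints in Pro and 40, 3 and 5 in Sen. They also overlapped for MPG, whose highest level, 190.9 CPM, was in the shallow Pro 1, but not for POLH. POLH was thus called higher in both layers, but the RPF calls of SWI5 and POLH did not pass at an adjusted p under 0.05. With DESeq2 both calls of the wider list in RPF were lower.

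Whether translation changed beyond mRNA was asked by translational efficiency (TE), the ratio of RPF to mRNA, tested as the interaction of library type with state over all 12 libraries. Of the 22 repair genes tested, 2 fell in TE, PRKDC and ATR, and none rose, against 3.73% lower and 6.32% higher among all 7473 genes tested. Among all genes called in TE, 62.8% were higher with TMM factors, 52.4% with RLE factors and 44.1% on library totals, while PRKDC and ATR stayed lower under each. DESeq2 called neither (adjusted p = 0.999 for both), and the count was 0 without Pro 2 or Pro 3, 1 without Sen 1 or Sen 3, and 3 without Pro 1.

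PRKDC had a log2 TE of 1.90, 1.84 and 1.83 in Pro 1 to 3 and 1.176, 0.68 and 1.14 in Sen 1 to 3, computed with 0.5 added to each count. Every senescent lysate was below every proliferating one, and its TE fell by 0.68 (SE 0.17, edgeR adjusted p = 0.0101). The direction was the same without either state's shallow lysate, at -0.66 (adjusted p = 0.00906) without both, and the call was lost without Pro 2 (-0.70, adjusted p = 0.157) or Pro 3 (-0.68, adjusted p = 0.164). XRCC5 and XRCC6, which act with PRKDC in DNA-PK, had TE changes of -0.13 (SE 0.16, edgeR adjusted p = 0.706) and 0.11 (SE 0.16, edgeR adjusted p = 0.758). Whether PRKDC differed from its partners in TE was not tested.

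ATR had a log2 TE of 1.04, 0.97 and 1.12 in Pro and 0.21, 1.10 and -0.21 in Sen. The shallow Sen 2, with 2 footprints, lay among the proliferating lysates, and the other senescent lysates lay below them. Its TE fell by 0.91 (SE 0.31, edgeR adjusted p = 0.0873), and the call was lost without Pro 2 (adjusted p = 0.202), Pro 3 (0.456), Sen 1 (0.392) or Sen 3 (0.404).

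**Figure D5:**
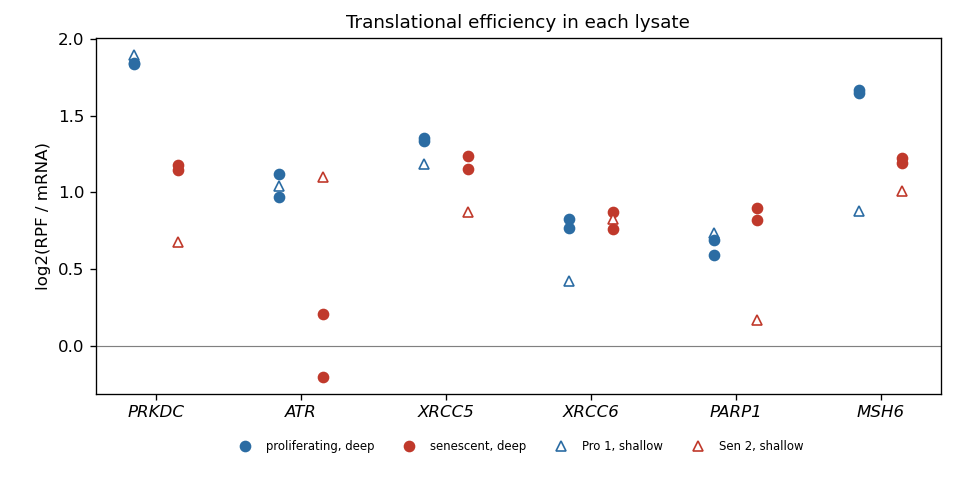
Log2 ratio of RPF to mRNA in each lysate for the 2 repair genes called lower in TE (PRKDC and ATR) and for 4 others with many reads, with filled circles for deep and open triangles for shallow lysates, blue for proliferating and red for senescent. PRKDC points lie from 1.83 to 1.90 in Pro and from 0.68 to 1.176 in Sen, and the states overlap for the other 5 genes.

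For the remaining 20 genes no TE change passed. Over the 22, TE changes ran from -1.13 for BARD1 (SE 0.54, edgeR adjusted p = 0.232) to 0.44 for WRN (SE 0.40, adjusted p = 0.588). Of the 22, 16 were below 0, against 3536 of all 7473 genes tested, and the median was -0.28 against 0.03. Whether TE of the 22 differed as a set was not tested. BARD1, BRCA1, FANCD2 and BRIP1 entered through their proliferating footprints, so their TE values are a description. PARP1, at 0.22 (SE 0.18, adjusted p = 0.553), and APEX1, at 0.20 (SE 0.20, adjusted p = 0.615), lay above 0. The log2 fold changes of RPF and mRNA correlated with r = 0.75 across the 22 genes and r = 0.80 across all 7473 genes tested in both layers. These points share lysates and libraries, genes are not independent replicates, and no p is attached. Of the wider list, XAB2 (0.84, SE 0.26) and LIG1 (1.023, SE 0.37) rose in TE and RAD18 fell by 1.025 (SE 0.39), at edgeR adjusted p of 0.0488, 0.102 and 0.123. That is 1 of 39 tested lower and 2 higher, against 3.73% lower and 6.32% higher over all genes tested. These genes were chosen for mention after their values were seen.

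The order of levels was then read per length. Per kilobase of canonical transcript, XRCC6, XRCC5, APEX1 and PARP1 ranked 1 to 4 of 34 in mRNA in both states, at 180, 95.7, 89.7 and 36.9 CPM per kilobase in Pro and 123, 60.8, 52.9 and 18.9 in Sen. The same 4 genes led in footprints per kilobase of coding sequence, where XRCC5 and XRCC6 were at 359 (SD 18.1, n = 3) and 332 (SD 41.5, n = 3) in Pro and did not differ beyond their spread. BRCA2 ranked last in mRNA in both states, at 0.57 and 0.15 CPM per kilobase. PRKDC moved from rank 5 to rank 9 in footprints, while UNG moved from rank 6 to rank 5 in mRNA and PMS2 from rank 23 to rank 14.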

How the data were processed

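The deposited tables give, for each gene symbol and library, how the authors divided reads among the CDS, both UTRs and non-coding classes. The deposited values are expected counts, that is, estimated counts that the authors left unscaled, most of them whole and the rest simple fractions, and were rounded after the regions of a gene were summed. The planned tests had assumed plain counts. The submitters' processing notes name cutadapt 1.18, Bowtie 1.0.1, SAMtools 1.8 and DESeq2 1.22.2. The genome build, annotation, strand rule and handling of reads with several placements are not given in the sources used here, so overlapping and antisense genes could not be separated.

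Symbols with a CDS read in any library (16451) entered edgeR 4.0.16 (R 4.3.3) with filterByExpr, TMM factors within each library type and two-sided quasi-likelihood tests, with p adjusted by Benjamini-Hochberg over all genes tested. The TE fit had lysate as a block. DESeq2 1.42.0, other scalings, filters and thresholds, and leaving out libraries were alternatives. SE came from the coefficient and its statistic. Scripts were tested on simulated data. Lengths came from GENCODE canonical transcripts on GRCh37. All members and a fixed rule for the wider list (the 3 lowest and 3 highest changed genes per layer) set which genes are named. Members, classes and lists were chosen with earlier results of these data known. Replicate numbers came from the labels. Floors cover counting error only.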

Additional observations from a re-analysis of the deposited data

How the results depend on the processing

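At the mRNA level, the count of changed repair genes was 33 of 34 and ranged from 31 to 34 when 1 library was left out, and no alternative moved it by over 1.5 times. In RPF the count was 19 of 22, ranged from 14 to 23 without 1 library, and was 8 with DESeq2 and 12 with a replicate block. In TE the count of 2 ranged from 0 to 3 without 1 lysate, and was 0 with DESeq2, 1 at an adjusted p under 0.05 and 3 with no replicate block. For the wider list, mRNA calls (67) ranged from 61 to 65 without 1 library. Its RPF calls (19) ranged from 12 to 28 without 1 library and were 29 for genes with at least 1 read, 2 with DESeq2, 10 with a replicate block, 35 without both shallow lysates and 10 at an adjusted p under 0.05. Its TE calls (3) ranged from 0 (without Pro 2 or Sen 3) to 7 (without Pro 1) and were 0 with DESeq2, 8 without both shallow lysates and 1 at an adjusted p under 0.05. The cause of these moves was not tested, although the filter and the left-out lysates also change how many genes are tested.

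Replicate numbers are shared across the states, but deviations of same-numbered libraries from their group means correlated at -0.07 to 0.09, never over 0.1, and not every library correlated best with its own number, so the numbers were not taken to pair cultures. With the replicate block, mRNA calls were 33 of 34. The RPF values of UNG changed sign on library totals (-0.032), with DESeq2 (-0.27), with the replicate block (-0.47), without Pro 3 (-0.09) and without Sen 1 (-0.64), and ranged from -0.64 to 0.30 without 1 library. Those of XRCC1 did so without Pro 3 (0.09) and without Sen 1 (0.15), with a range of -0.73 to 0.15, and that of WRN without Sen 1 (0.11). None of these 3 genes had passed the RPF test. The mRNA ratio of end joining to homologous recombination, senescent over proliferating, was 1.47 per kilobase, 1.44 in plain reads (added after the data were seen), and 1.44 to 1.53 without 1 library. The median SE over the tested repair genes was 0.29 in RPF and 0.12 in mRNA.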
